A study of Mus musculus with 18 samples.

Results

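The brush border digestive enzymes are hydrolases anchored in the apical membrane of intestinal epithelial cells, and 9 of their genes were followed here among the 27131 rows of an RNA-seq table of mouse colon: Sis, Mgam, Lct, Treh, Anpep, Enpep, Dpp4, Mep1a and Mep1b. The rows were taken by gene symbol, and each symbol matched 1 row. The set was put together as an enzyme family, without a threshold, when differences between the groups in these same libraries were already known. Differences of the 9 genes between the groups are therefore given as values with their errors, with no p. A count of the 9 past the threshold of a fit across all genes is given only beside the share of all genes past it. Polyadenylated RNA came from the colon of C57BL/6 mice given no treatment, with 9 libraries labelled Hif2a +/+ (WT) and 9 labelled Hif2a LFL (HIF2, libraries of mice that overexpress HIF2 in the colon per the labels). The allele is written LSL in the design text, and its promoter, its Cre driver and the age and sex of the mice are not stated in the labels. How many mice the libraries stem from is not stated either, so errors and p-values cover only library-to-library spread, which may be technical in part. Libraries are named below by group and replicate number, 0 to 8.

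Brush border enzymes carry out the last steps of digestion. Disaccharidases split the small sugars left by amylase, peptidases trim the peptides left by gastric and pancreatic proteases, and the products are taken up by transporters in the same membrane. These enzymes are best known from the small intestine. In the colon several are present at low levels, while the meprins are abundant there in mice, and CDX2 is a factor known to act on the sucrase-isomaltase promoter.

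Values were FPKM, fragments scaled by transcript length and library size, so levels of different genes can be set side by side. Columns summed to between 686539 and 937505 FPKM, and no 2 libraries correlated above 0.931. Of the marker lists of other cells, 9 of 10 tested smooth muscle genes, 5 of 5 pericyte, 7 of 7 fibroblast and 7 of 7 macrophage genes were called higher in HIF2, and 0 of 2 tested T cell genes. Of those genes 1 of the smooth muscle and 3 of the pericyte list passed the filter on low values by their HIF2 level, so a higher level there was built in. Over all genes tested, 11% were called higher and 11.1% lower in HIF2. The 10 smooth muscle genes summed to between 31.3 and 1063 FPKM in WT, where replicate 3 was highest, to between 1305 and 3229 in HIF2 replicates 0 to 5, and to between 65 and 171 in HIF2 replicates 6 to 8. HIF2 replicates 6 to 8 also stood apart on the second principal component (11.2% of the variance). The 14 epithelial reference genes summed to between 5527 and 8075 FPKM in WT. In HIF2 they summed to between 5524 and 7338 in replicates 0 to 5 and between 7307 and 9344 in replicates 6 to 8. Krt8 and Krt19 were large parts of that sum, at 3211 and 1523 FPKM in WT and 3328 and 1686 in HIF2 on average. Relative to WT, the list mean of log2(FPKM + 1) was between -0.447 and -0.134 in HIF2 replicates 0 to 5. It was between -0.039 and 0.054 in HIF2 replicates 6 to 8. Of the 14 genes, 6 were called lower. Epcam, which encodes an adhesion protein of epithelial cells, was 905 FPKM in WT and 804 in HIF2 on average. The colonic genes Car1 and Slc26a3 averaged 6884 and 610 FPKM in WT, and of 10 tested colonic epithelium genes 5 were called lower in HIF2 and 1 higher. Epas1, which encodes HIF-2α, was 18.8 FPKM in WT and 22.7 in HIF2 on average, a difference of 0.24 on the log2 scale (limma adjusted p = 0.246). It was between 13.8 and 23 FPKM in WT. In HIF2 it was 35.9 in replicate 0, between 16.6 and 20.4 in replicates 1 to 5 and between 24.4 and 27.9 in replicates 6 to 8. In HIF2 replicates 2 and 4 the iron importer gene Slc11a2 was 16.5 and 18.2 FPKM, inside the WT range of 12.8 to 19 FPKM, against 229 to 469 FPKM in replicates 0, 1, 3 and 5 and 1525 to 2101 in replicates 6 to 8. The Y-linked gene Ddx3y was at most 0.217 FPKM in WT replicates 5 to 8 and HIF2 replicates 3, 6, 7 and 8, and between 19.4 and 37.1 in all other libraries. Each group thus held libraries of both sexes, and so of more than 1 mouse.

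Promoter windows are shown for Sis, Mgam and Anpep, the pair of genes whose groups did not overlap and the gene with the lowest log2 difference of the 9. Each is the RefSeq window of GRCm38.p6, 250 bases before the gene's start and 50 after it, read on the gene's strand from 5′ to 3′. Capitals mark the CDX core TTTAT, on either strand. The windows are chr3:72967814-72968113 (minus strand) for Sis, chr6:40628581-40628880 (plus strand) for Mgam and chr7:79848161-79848460 (minus strand) for Anpep.
Sis: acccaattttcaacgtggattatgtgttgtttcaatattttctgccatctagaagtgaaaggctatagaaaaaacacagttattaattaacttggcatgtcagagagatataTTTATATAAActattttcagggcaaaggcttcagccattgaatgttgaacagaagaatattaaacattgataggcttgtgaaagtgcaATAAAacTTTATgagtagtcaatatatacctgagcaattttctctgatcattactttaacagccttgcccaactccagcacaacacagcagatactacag
Mgam: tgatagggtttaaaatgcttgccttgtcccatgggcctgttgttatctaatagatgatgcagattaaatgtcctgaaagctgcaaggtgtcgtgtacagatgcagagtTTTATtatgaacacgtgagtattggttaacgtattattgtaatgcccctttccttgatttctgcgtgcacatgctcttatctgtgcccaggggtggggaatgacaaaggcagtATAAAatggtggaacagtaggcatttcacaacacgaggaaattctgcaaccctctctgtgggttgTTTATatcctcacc
Anpep: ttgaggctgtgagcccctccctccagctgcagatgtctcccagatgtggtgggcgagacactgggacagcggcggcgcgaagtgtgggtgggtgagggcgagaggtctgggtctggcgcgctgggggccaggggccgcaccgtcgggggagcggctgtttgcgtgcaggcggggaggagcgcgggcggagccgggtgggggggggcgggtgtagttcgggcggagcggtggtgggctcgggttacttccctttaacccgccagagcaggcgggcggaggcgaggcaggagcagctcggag
The Sis window held 4 TTTAT matches, at 138, 133, 50 and 43 bases before the start. The Mgam window held 3 TTTAT matches and the Anpep window none. Anpep's window was 72.3% G and C, against 34% for Sis and 43% for Mgam and a median of 52.7% over 32851 windows. The Anpep start used by RefSeq lies 12849 bases inside the gene as GENCODE M21 draws it, so another start may be in use. RefSeq windows were matched for 8 of the 9 members. TTTAT was in 6 of these 8 and in 40% of all windows. GATAA, the core bound by GATA factors, was in 5 of 8 and in 25.4% of all, and CAAAGT, an HNF4 core, in 2 of 8 and 14.4% of all. The HIF core ACGTG was in 2 of 8 windows and in 19.6% of all. It lay 238 bases before the Sis start, and in Mgam its matches on both strands overlapped each other, at 131 and 130 bases before the start. The other HIF core, GCGTG, was in 2 of 8 windows, Mgam and Anpep, and in 32.4% of all. Both strands were searched, and a match is a run of letters, not a shown binding site.

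In WT colon the meprin and maltase genes led the family. Mean levels were 216 ± 25.2 FPKM for Mep1a, 121 ± 10.4 for Mgam and 103 ± 22.6 for Mep1b (SD, n = 9). Anpep followed at 33.9 ± 19.1, Sis at 21.3 ± 7.52, Dpp4 at 13.7 ± 2.26 and Enpep at 12.4 ± 5.86. Lct, at 2.24 ± 2.91, and Treh, at 1.71 ± 1.13, were lowest. Some neighbours in this order overlapped: Mgam was above Mep1b in 6 of 9 WT libraries, Anpep above Sis in 7, Dpp4 above Enpep in 6 and Lct above Treh in 4. In HIF2 the first 3 places were held by the same genes, and Dpp4 and Enpep came next. Anpep and Sis followed at 4.07 ± 2.24 and 3.85 ± 2.11 FPKM, and Anpep was above Sis in only 5 of 9 libraries.

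**Figure D1:**
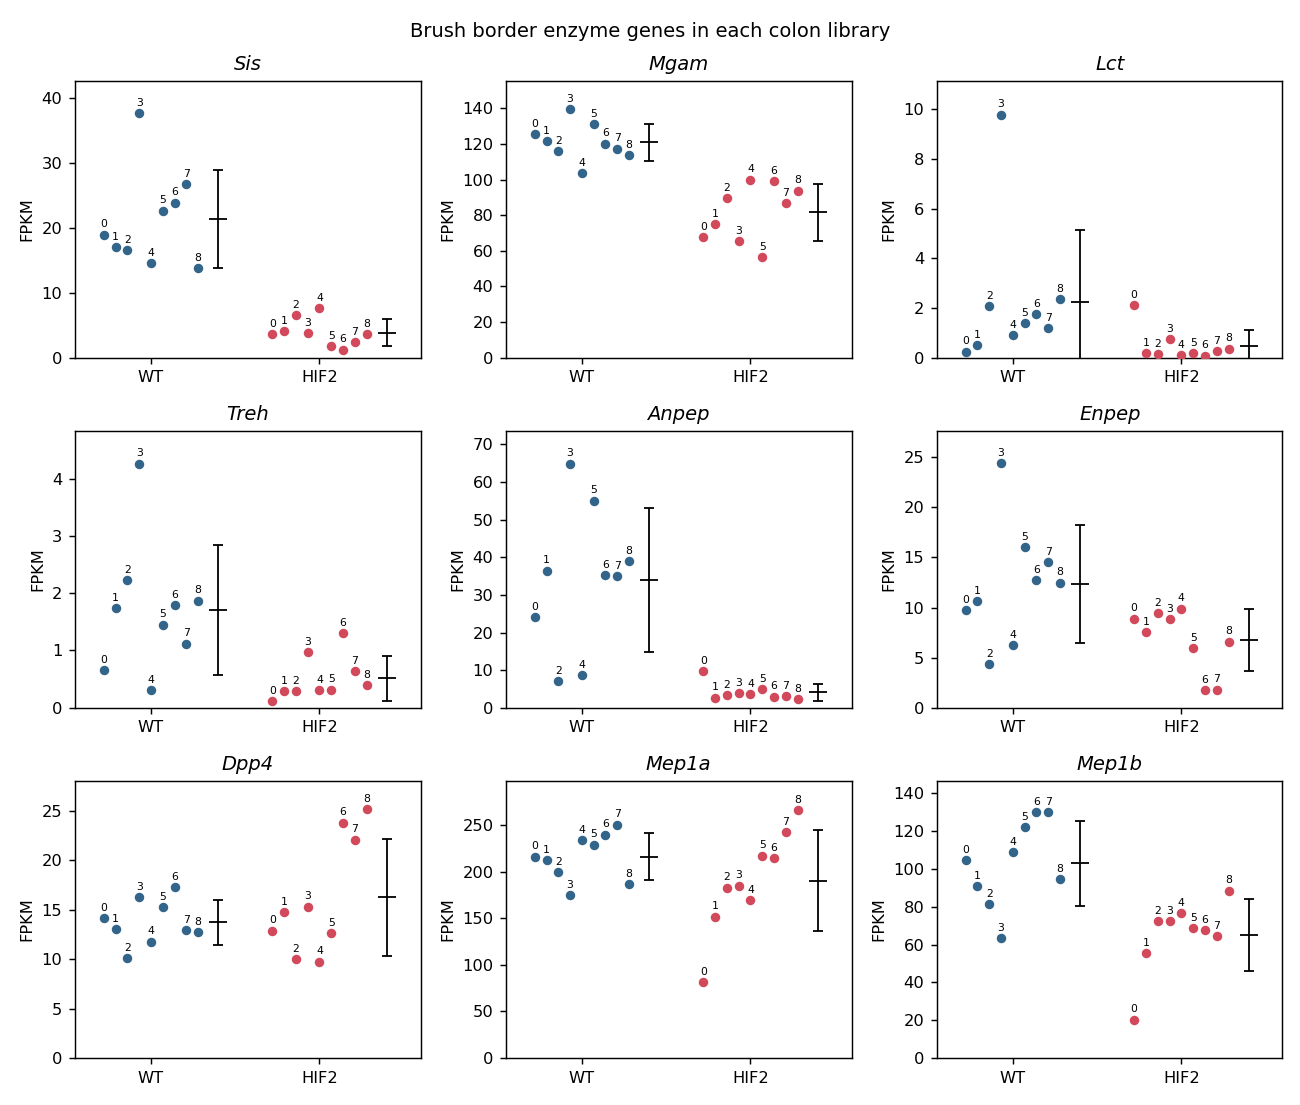
FPKM of each of the 9 enzyme genes in each library, 1 point per library labelled with its replicate number, in WT (blue) and HIF2 (red); the bar beside each group is its mean and SD (n = 9). Sis and Mgam show no overlap between the groups, and Dpp4 is highest in HIF2 replicates 6 to 8.

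In HIF2 colon 8 of the 9 genes had a lower mean than in WT, the exception being Dpp4. All 9 passed the filter of a mean of at least 1 FPKM over the 18 libraries, but Lct and Treh passed by their WT level, so for these genes a lower level in HIF2 was built in. In a limma fit across all 13976 genes that passed, on log2(FPKM + 1) with a Benjamini-Hochberg threshold of 0.05, 6 of the 9 were called lower and 0 higher. Over all genes tested 22.1% were called, 11.1% lower and 11% higher in HIF2. The 6 include Lct and Treh. The median difference of the 9 was -0.78 on the log2 scale, against -0.02 over all genes tested. That median is the value of Treh itself, so it rests on a gene whose lower level was built in. Because the set was also chosen with this contrast known, nothing is read from that count or that median. Every HIF2 value lay below every WT value for 2 of the 9, Sis and Mgam, a pattern found in 1.27% of all genes tested. In bulk tissue, fewer cells of a type and less RNA per cell cannot be told apart.

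Among the disaccharidases, Sis encodes sucrase-isomaltase, which splits sucrose and the branched ends of starch (chromosome 3, 72888557 to 72967863, GRCm38). It ranged from 13.8 to 37.6 FPKM in WT with a median of 18.9, and from 1.23 to 7.66 in HIF2 with a median of 3.64. All 9 HIF2 libraries were below the lowest WT library, and the lowest were replicates 6 and 5. The mean was 5.54-fold lower in HIF2, a difference of -2.26 (SE 0.24) on the log2 scale, the 37th lowest of 13976. Mgam encodes maltase-glucoamylase, the paralogue that releases glucose from maltose and starch ends (chromosome 6, 40628831 to 40769123). It ranged from 103 to 140 FPKM in WT with a median of 120, and from 56.7 to 100.02 in HIF2 with a median of 86.6. The groups were again separate, but the gap was narrow and the mean was 1.48-fold lower (log2 difference -0.58, SE 0.11). The pseudogene Mgam2-ps lies next to Mgam, and reads shared by such copies may be split between them.

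Lct encodes lactase, the milk sugar enzyme that declines after weaning (chromosome 1, 128284756 to 128328318). It was between 0.246 and 9.79 FPKM in WT with a median of 1.39, and between 0.0806 and 2.11 in HIF2 with a median of 0.195. A single library stood far above the rest in each group, WT replicate 3 and HIF2 replicate 0, and 4 HIF2 libraries lay inside the WT range. The log2 difference was -0.92 (SE 0.33). Without WT replicate 3 the gene no longer passed the filter, and without any 1 of the other libraries the difference was between -1.07 and -0.88. Treh encodes trehalase, which splits the fungal and insect sugar trehalose (chromosome 9, 44673233 to 44686305), and its annotated span overlaps Phldb1 on the other strand, which this kit cannot separate. It was between 0.314 and 4.26 FPKM in WT with a median of 1.74, and between 0.116 and 1.31 in HIF2 with a median of 0.317. The groups overlapped, with 5 HIF2 libraries inside the WT range, and the log2 difference was -0.78 (SE 0.22). Like Lct, Treh no longer passed the filter without WT replicate 3. Without any 1 of the other libraries its difference was between -0.89 and -0.72, and after subtraction of the epithelial reference mean it was -0.55.

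The peptidases did not move as 1 block. Anpep encodes aminopeptidase N, which takes neutral residues off peptides (chromosome 7, 79821803 to 79861059), and the annotated gene Gm44974 overlaps it. It was between 7.01 and 64.9 FPKM in WT with a median of 35.2, and between 2.31 and 9.69 in HIF2 with a median of 3.28. WT replicates 2 and 4, at 7.01 and 8.61 FPKM, lay far below the other WT libraries, which were all at 24 FPKM or above, and HIF2 replicate 0 was the single HIF2 library inside the WT range. The mean was 8.34-fold lower in HIF2 and the log2 difference was -2.60 (SE 0.36), the 24th lowest of all genes tested. Fabp6, the ileal bile acid binding protein gene, was also low in WT replicates 2 and 4, at 21 and 18.9 FPKM, against 93.1 to 141 in the other WT libraries.

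Enpep encodes aminopeptidase A, which removes acidic residues and cleaves angiotensin II (chromosome 3, 129269175 to 129332720). It was between 4.36 and 24.4 FPKM in WT with a median of 12.5, and between 1.80 and 9.90 in HIF2 with a median of 7.57. The groups overlapped, with 7 of the 9 HIF2 libraries inside the WT range, and those below it were HIF2 replicates 6 and 7 at 1.80 and 1.82 FPKM. The log2 difference was -0.81 (SE 0.32). The processed pseudogene Gm42628 overlaps Enpep on the other strand. Enpep is also known from pericytes of small vessels. The 6 pericyte genes summed to between 2.93 and 57.6 FPKM in WT, between 75.9 and 229 in HIF2 replicates 0 to 5 and between 10.3 and 15.1 in HIF2 replicates 6 to 8. Adding the mean of the smooth muscle genes to the fit put Enpep at -1.54 (SE 0.33). The part of pericyte RNA in this row was not tested.

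Dpp4 encodes dipeptidyl peptidase 4, which removes dipeptides from the ends of peptides and inactivates incretin hormones (chromosome 2, 62330073 to 62412231). It was between 10.1 and 17.3 FPKM in WT with a median of 13.1. In HIF2 it was between 9.74 and 15.3 FPKM in replicates 0 to 5 and between 22.1 and 25.2 in replicates 6 to 8. The 3 high libraries were above every WT library, and the other 6 HIF2 libraries were all at or below 15.3. Over all libraries the log2 difference was 0.17 (SE 0.17), and without HIF2 replicates 6 to 8 it was -0.12 (SE 0.12). The 3 high libraries were also those with the highest Slc11a2 and, with HIF2 replicate 3, those with Ddx3y near 0. Dpp4 was 15.3 FPKM in HIF2 replicate 3 and between 12.7 and 17.3 in WT replicates 5 to 8, and with Ddx3y as a covariate its log2 difference was 0.19 (SE 0.13). DPP4 is also a T cell surface protein, CD26. The 7 T cell genes summed to between 5.53 and 9.71 FPKM in WT, between 2.42 and 10.9 in HIF2 replicates 0 to 5 and between 4.42 and 5.90 in HIF2 replicates 6 to 8. The part of T cell RNA in this row was not tested. An antisense gene, Gm13561, overlaps Dpp4 and cannot be separated from it here.

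The meprins are metalloproteases whose α and β subunits are encoded by Mep1a (chromosome 17, 43474324 to 43502812) and Mep1b (chromosome 18), and the β subunit anchors the complex to the membrane. Mep1a was between 175 and 250.4 FPKM in WT with a median of 216, and between 81.1 and 266 in HIF2 with a median of 185. The groups overlapped in both directions, with 3 HIF2 libraries below the WT range and 1 above it, and the log2 difference was -0.24 (SE 0.17). Mep1b was between 63.6 and 130.05 FPKM in WT with a median of 105, and between 20.3 and 88.5 in HIF2 with a median of 68.8. It overlapped too, with 7 HIF2 libraries inside the WT range, and its log2 difference was -0.70 (SE 0.22). The processed pseudogene Gm6378 overlaps Mep1b on the other strand. Both meprin genes were lowest in HIF2 replicate 0. Without that library the log2 difference was -0.10 for Mep1a and -0.51 for Mep1b.

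**Figure D2:**
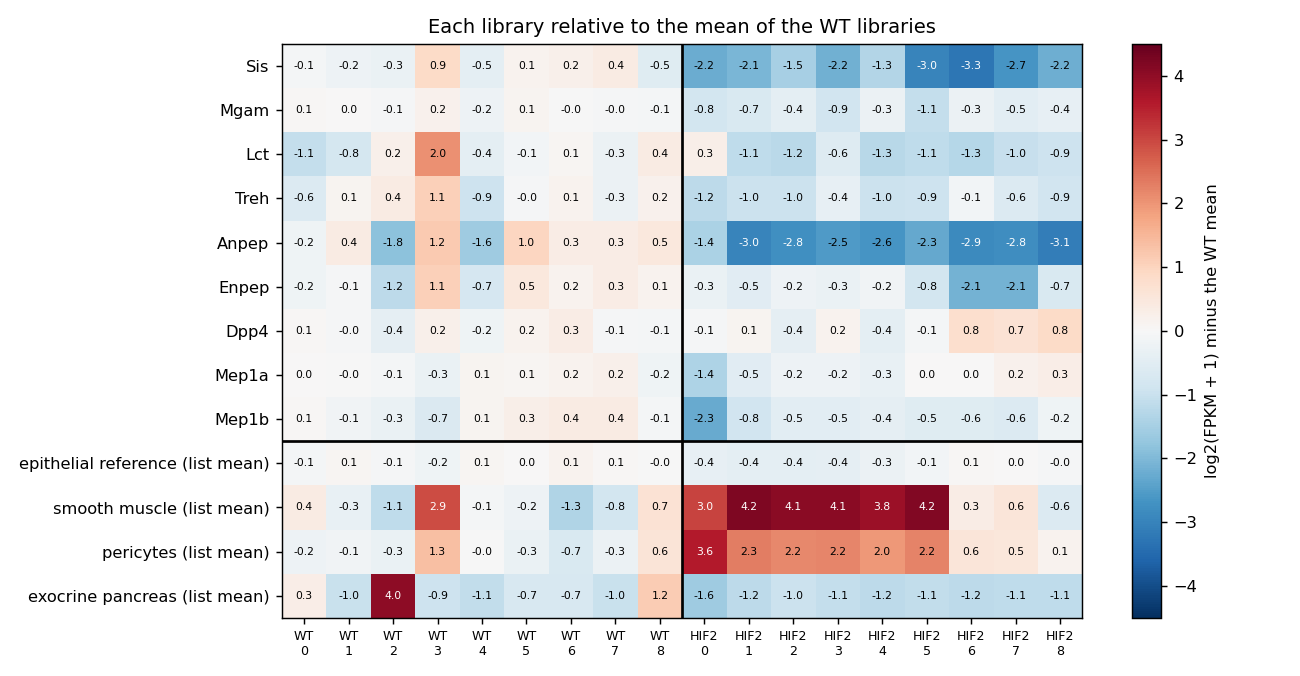
Difference of each library's log2(FPKM + 1) from the WT mean, for the 9 enzyme genes (upper rows) and for the means of 4 marker lists (lower rows), with WT libraries on the left and HIF2 libraries on the right. Sis is below the WT mean in all HIF2 libraries, by 1.3 or more on the log2 scale. The smooth muscle list is high in HIF2 replicates 0 to 5 and near WT in replicates 6 to 8, and its part in the Sis values was not tested.

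Ratios within a library do not depend on its scaling or on how much epithelium it holds, where both genes are read from the same cells. Sis per 100 FPKM of Mgam ranged from 12.1 to 26.9 in WT with a median of 15.1, and from 1.24 to 7.65 in HIF2 with a median of 5.31. All 9 HIF2 libraries were below the WT minimum, so the disaccharidase genes differed unequally between the groups. Mep1b per 100 FPKM of Mep1a ranged from 36.4 to 54.3 in WT and from 25 to 45.1 in HIF2, where 5 libraries were below the WT minimum. Anpep per 100 FPKM of Enpep ranged from 137 to 343 in WT and from 34.7 to 173 in HIF2, and 7 HIF2 libraries were below the WT minimum. The 2 inside the WT range were HIF2 replicates 6 and 7, the libraries in which Enpep itself was lowest. Relative to 100 FPKM of Epcam, Sis was 2.43 ± 1.16 across WT and 0.504 ± 0.295 across HIF2 libraries (SD, n = 9), without overlap. Mep1a on that scale was 24 ± 1.76 in WT and 23.3 ± 5.01 in HIF2, and Mgam was 13.7 ± 2.84 and 10.2 ± 1.95 with 3 HIF2 libraries below the WT range. Relative to 100 FPKM of Vil1, the villin gene of the microvillus, the differences other than that of Sis were less uniform. Sis was 6.84 ± 2.46 in WT and 1.76 ± 1.11 in HIF2 on that scale, again without overlap. Mgam was 38.9 ± 4.35 and 34.9 ± 7.92, with 5 HIF2 libraries below the WT range and 1 above it. Mep1a was 69.3 ± 8.77 and 78.7 ± 15.3, so that its mean was higher in HIF2, with 1 library below the WT range and 4 above it.

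**Figure D3:**
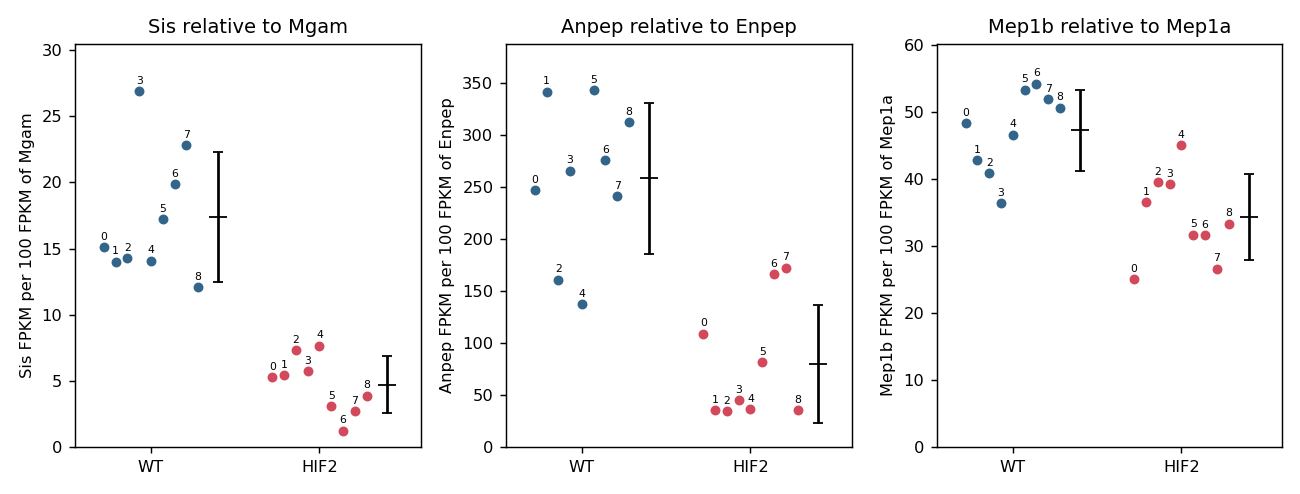
FPKM of one enzyme gene per 100 FPKM of another in the same library, for Sis relative to Mgam, Anpep relative to Enpep and Mep1b relative to Mep1a; points are libraries labelled by replicate number and bars are the mean and SD of each group (n = 9). The groups do not overlap for Sis relative to Mgam, and overlap for the other 2 ratios.

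Marker genes of other cells moved with the groups, and the size of the differences was set beside them. With the mean of the smooth muscle list as a covariate, Sis differed by -2.65 (SE 0.29), Anpep by -3.07 (SE 0.45), Lct by -1.32 (SE 0.41) and Mgam by -0.48 (SE 0.13). Treh differed by -0.81 (SE 0.29), Mep1b by -0.45 (SE 0.28) and Dpp4 by 0.53 (SE 0.18), and Mep1a changed sign to 0.06 (SE 0.20). When the mean of the 14 epithelial reference genes was subtracted in each library, Sis differed by -2.04 (SE 0.29), Anpep by -2.38 (SE 0.38), Mgam by -0.36 (SE 0.12) and Dpp4 by 0.40 (SE 0.14). Mep1a was then at -0.02 (SE 0.14). That centring moved the median of all genes tested to 0.20 from -0.02, with 3750 called higher and 502 lower, against 1531 and 1557 without it. Without HIF2 replicates 2 and 4, where Slc11a2 was in the WT range, Sis differed by -2.51, Enpep by -0.98 and Lct by -0.84. Exocrine pancreas genes were also unequal, summing to between 65.5 and 1202 FPKM in WT and between 16.3 and 106 in HIF2, where Try4, Try5 and Pnlip were listed at 0 in all libraries. Amy2a5 was listed at 0 in all libraries of both groups, and 2 of 14 tested genes were called lower and 0 higher. The 2 were Cela1 and Clps, which averaged 109 and 42.2 FPKM in WT and 55.6 and 11.7 in HIF2. They made up most of the sum in every library but WT replicate 2. The list mean of log2(FPKM + 1) was 6.09 in WT replicate 2, 3.20 in WT replicate 8 and 2.33 in WT replicate 0. It was at most 1.33 in every other library of both groups. The highest sum was in WT replicate 2, and Anpep, Enpep and Dpp4 were at their WT minimum in that library. Whether other cells' RNA had a part in these differences was not tested.

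**Figure D4:**
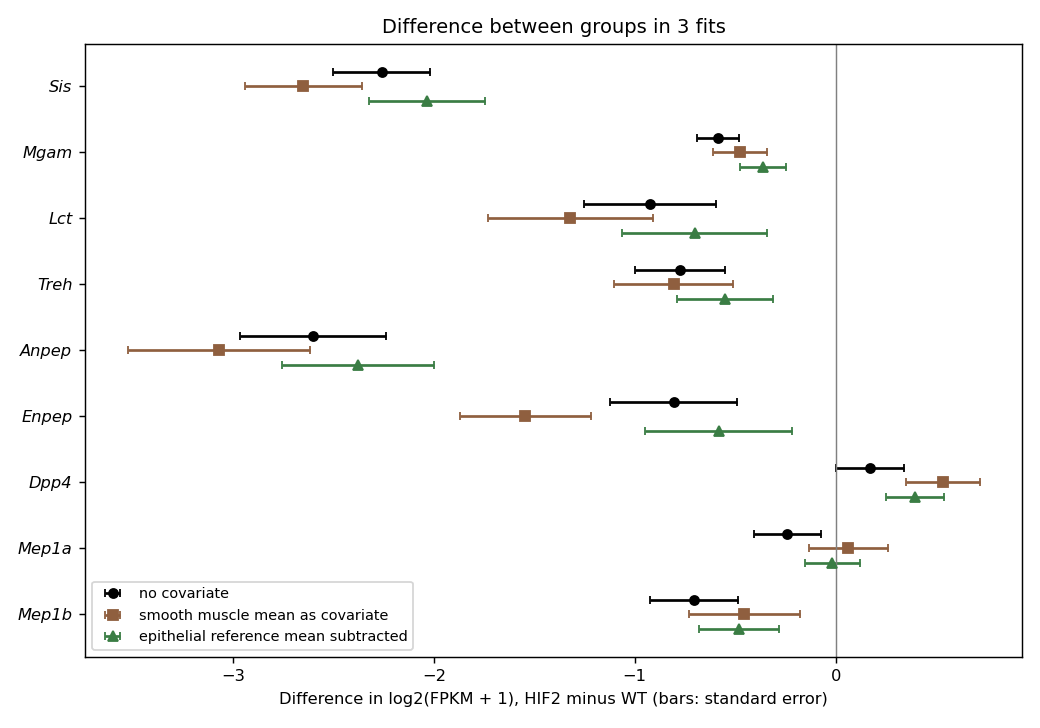
Difference between the groups in log2(FPKM + 1), HIF2 minus WT, with its standard error, for each enzyme gene in 3 limma fits across all genes. Anpep and Sis lie furthest below 0 in all 3 fits, Dpp4 lies above 0 in all 3, and Mep1a lies between -0.24 and 0.06.

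Among themselves the 9 genes did not vary as a unit. Over the 36 pairs, the correlation of deviations from the group means across the 18 libraries ranged from -0.619 to 0.89 with a median of 0.104, and 23 were above 0. The points share libraries and scaling, and these values are descriptions. Mep1a and Mep1b gave 0.89, Sis and Enpep 0.764, and Anpep and Enpep 0.66, whereas Lct and Mep1b gave -0.619. In WT, 6 of the 9 genes had their highest value in replicate 3, which also held the most smooth muscle RNA of the WT libraries. The genes most like each member on the same measure, among 11401 genes, were Dpyd for Sis (0.827), Dmbt1 for Mgam (0.881), Nomo1 for Lct (0.809), Ddx11 for Treh (0.759) and Npc1l1 for Anpep (0.843). For Enpep the closest was Htr2b (0.838), for Mep1a it was Entpd8 (0.955), followed by Prr15l and Acadm, and for Mep1b it was Fbxo25 (0.952). Sh3tc2 (0.925) was closest to Dpp4, and Xpnpep2, which encodes another membrane-bound aminopeptidase, was next at 0.909. Xpnpep2 averaged 4.26 FPKM in WT and 9.58 in HIF2.

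Other genes of digestion and absorption were read from lists chosen by function, which were put together with earlier results of these libraries known. Over all 13976 genes tested, 11.1% were called lower and 11% higher in HIF2. After the epithelial reference mean was subtracted, 502 of them were called lower and 3750 higher. No result about a list is read from its count of rising genes after that subtraction. Of 12 tested brush border ectoenzyme genes outside the set, 6 fell and 0 rose, with a median log2 difference of -0.64. After the epithelial reference mean was subtracted 5 fell and 2 rose, as they did without HIF2 replicates 2 and 4, and with smooth muscle as a covariate 5 fell and 1 rose. The 2 that rose were Ggt1 and Xpnpep2, which were 0.70 (SE 0.29) and 0.73 (SE 0.37) over all libraries and 0.89 and 1.18 without HIF2 replicates 2 and 4. Enpp7, the sphingomyelinase of the brush border, was between 0 and 15.6 FPKM in WT and between 0 and 1.40 in HIF2. Enpp7 and the peptidase gene Mme, counted among the 6, passed the filter by their WT level, so a lower level in HIF2 was built in. Naaladl1, a peptidase gene, fell from 31.4 to 12.4 FPKM (log2 difference -1.35, SE 0.24, limma adjusted p = 0.000838). Alpi, for intestinal alkaline phosphatase, was named after its values were seen. It averaged 15.8 FPKM in WT against 14.9 in HIF2, with a log2 difference of -0.13 (SE 0.17).

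Of 12 tested transporters of sugars, peptides and amino acids, 5 fell and 0 rose (median -0.23), and 1 of the 5, the fructose carrier gene Slc2a5, passed the filter by its WT level. The neutral amino acid carrier gene Slc6a19 fell by 1.51 (SE 0.36, limma adjusted p = 0.00526), but did not pass once smooth muscle was a covariate (-1.03, adjusted p = 0.132). The proton-coupled amino acid carrier gene Slc36a1 fell by 1.23 (SE 0.20, limma adjusted p = 0.000321), with all 9 HIF2 libraries below the WT range. Slc5a1, the sodium-glucose carrier for the sugars that disaccharidases release, was named after its values were seen. It fell from 86.1 to 43.1 FPKM (log2 difference -1.01, SE 0.11, limma adjusted p = 9.71e-06). After the epithelial reference mean was subtracted, 4 transporters rose and 4 fell, beside 3750 higher and 502 lower over all genes tested. With smooth muscle as a covariate 4 rose and 3 fell (median 0.17), and without HIF2 replicates 2 and 4, 3 rose and 5 fell.

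Lipid absorption genes moved both ways, with 10 of 17 falling and 2 rising (median -0.64). Npc1l1 and Abcg8, counted among the 10, passed the filter by their WT level. After the epithelial reference mean was subtracted 7 fell and 2 rose, and with smooth muscle as a covariate 6 fell and 2 rose. Under that covariate Dgat2 passed as higher (0.81, limma adjusted p = 0.0301) in place of Cd36. Fabp6 fell from 95.9 to 14.2 FPKM (log2 difference -2.86, SE 0.48, limma adjusted p = 0.000449) and Apoa1, a lipoprotein gene, from 65 to 14.2 FPKM (-2.28, SE 0.45, limma adjusted p = 0.00152). Scarb1, a lipoprotein receptor gene, rose by 1.52 (SE 0.38, limma adjusted p = 0.00717). The fatty acid receptor gene Cd36 rose by 1.38 (SE 0.36, limma adjusted p = 0.00938), but did not pass once smooth muscle was a covariate (0.47, adjusted p = 0.394).

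The microvilli that carry these enzymes are built from actin bundles. Of 18 genes for their bundling, motor and tip proteins, 11 fell and 0 rose (median -0.46), and 6 fell after the epithelial reference mean was subtracted. Villin, Vil1, fell by 0.40 (SE 0.12, limma adjusted p = 0.0202), from 312 to 241 FPKM, and this call was lost after that subtraction (-0.18, adjusted p = 0.0898), with smooth muscle as a covariate (-0.12, adjusted p = 0.563) and without HIF2 replicates 2 and 4 (-0.36, adjusted p = 0.056). Baiap2l2, for a membrane-bending protein, fell by 0.88 (SE 0.17, limma adjusted p = 0.00115). Espn, for the bundling protein espin, fell by 0.92 (SE 0.25, limma adjusted p = 0.0115), a call lost after the subtraction (-0.69, adjusted p = 0.0514) and without HIF2 replicates 6 to 8 (-0.73, adjusted p = 0.0616).

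Of 14 tested transcription factor genes known from enterocytes, 10 fell and 1 rose (median -0.55), and 4 fell and 1 rose after the epithelial reference mean was subtracted. Cdx2 fell from 82.1 to 54.3 FPKM (log2 difference -0.60, SE 0.15, limma adjusted p = 0.00714), a call lost after that subtraction (-0.38, adjusted p = 0.0681). The CDX2 protein is known to bind TTTAT cores, but binding to the matches printed above was not tested. Hnf4a differed by -0.30 (SE 0.11, limma adjusted p = 0.0631), and passed without any 1 of HIF2 replicates 6, 7 and 8 (adjusted p from 0.0214 to 0.0334). It was between 107 and 163 FPKM in HIF2 replicates 0 to 5, between 206 and 219 in replicates 6 to 8 and between 194 and 214 in WT. Without HIF2 replicates 6 to 8 Hnf4a differed by -0.49 (limma adjusted p = 0.000383). Isx fell by 0.87 (SE 0.20, limma adjusted p = 0.00395). Hnf4g fell by 0.83 (SE 0.22, limma adjusted p = 0.0103), a call lost after the subtraction (-0.60, adjusted p = 0.0675) and without HIF2 replicates 6 to 8 (-0.69, adjusted p = 0.0557). Prdm1, the repressor that marks fetal enterocytes, rose by 0.52 (SE 0.16, limma adjusted p = 0.0232). The difference of Prdm1 was 0.19 with smooth muscle as a covariate (adjusted p = 0.502) and 0.37 with quantile normalization (adjusted p = 0.0665). Without HIF2 replicates 2 and 4 it was 0.50, near the value over all libraries, with an adjusted p of 0.0554.

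**Figure D5:**
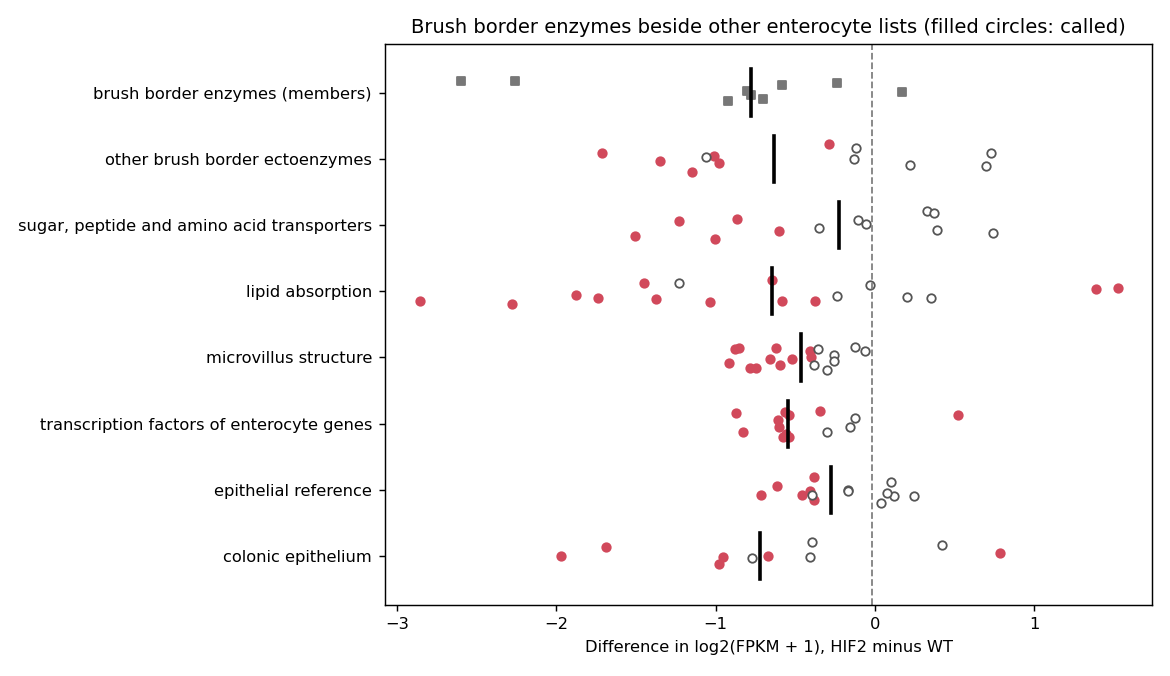
Difference in log2(FPKM + 1), HIF2 minus WT, for the tested genes of the enzyme set and of 7 other lists; each point is a gene, the enzyme set is drawn as squares, circles are filled where the gene passed an adjusted p of 0.05, black bars are list medians and the dashed line is the median of all genes tested (-0.02). The enzyme median is -0.78, the value of Treh, whose lower level in HIF2 was built in by the filter. Anpep and Sis are the points furthest to the left in their row.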

How the data were processed

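The authors deposited FPKM for 27131 rows in 18 library columns. Per the submitters' processing notes, the tools were Cufflinks and Cuffdiff 2.1.1, TopHat and TopHat2 2.0.9, Bowtie2 2.1.0.0 and FastQC, and the build was mm10; their roles are not given. Libraries were made with the TruSeq RNA kit v2 from fresh or frozen tissue, per the labels' protocols, and the kit does not mark strand. Read totals are not stated; in 5039 low genes the modal ratio to WT replicate 0 ran from 1.04 to 1.37 between libraries.

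Values were analysed as log2(FPKM + 1), which understates changes of low genes. Genes with a mean of at least 1 FPKM, 13976 in all, were fitted with limma 3.58.1 in R 4.3.3 (trended prior, 2-sided, Benjamini-Hochberg threshold 0.05), a procedure tested on simulated data. The members, lists and alternatives were chosen with earlier results of these data known, and 169 of 170 list entries matched a row. From each other list, the rule names the 2 largest called changes in each direction, and for each member the 3 genes most like it; not all are reported here, and 1 further gene that the rule names is left out. Coordinates are 1-based, from GENCODE M21 (GRCm38, the assembly of mm10), and promoters are from RefSeq. Figures used matplotlib 3.10.9.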

Additional observations from a re-analysis of the deposited data

Results flagged for a closer look

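In 5 of 18 groups of 9 values, 1 library lay far from the others on the log2 scale, where chance alone would mark about 1 group in 20. Lct was 9.79 FPKM in WT replicate 3, and the next WT value was 2.35. HIF2 replicate 0 accounted for the other 4. Lct was 2.11 FPKM there with a next value of 0.731, and Anpep was 9.69 FPKM with a next value of 4.89. In the same library Mep1a was lowest at 81.1 FPKM, with the next at 152, and Mep1b was lowest at 20.3 FPKM, with the next at 55.4. The pericyte genes also summed highest there, at 229 FPKM. Its part in these values was not tested.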

How the results depend on the processing

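Counts for the enzyme set are descriptions, since it was chosen with this contrast known. It had 6 genes called in the main analysis, between 4 and 6 when 1 library was left out, 5 with the replicate number as a block and 4 with the filter at 5 FPKM. Lct and Treh were not tested without WT replicate 3, the left-out library that gave 4, nor with the filter at 5 FPKM. Sis, Mgam, Anpep and Mep1b were called in all 18 fits that left out 1 library. Lct, 1 of the 6, was tested in 17 of the 18 fits that left out 1 library, and was called in 3 and not called in 14. Over all genes 3088 were called, between 2618 and 3295 when 1 library was left out, 1896 with the filter at 5 FPKM, where 33.8% of calls were higher in HIF2 against 49.6%, and 1977 with the smooth muscle covariate. Without a filter 60.8% of calls were higher, and after subtraction of the epithelial reference mean 88.2%. In the 5 other digestion and absorption lists 45 genes were called, between 41 and 47 when 1 library was left out. Signs changed in 2 cases: Dpp4 was -0.12 without HIF2 replicates 6 to 8, and Mep1a was 0.063 with the smooth muscle covariate. Leaving out those 3 libraries, or WT replicate 3 with HIF2 replicate 0, was chosen after seeing the data. The latter left 4 of 7 tested enzyme genes called, since Lct and Treh fell under the filter. Lct was -0.92 without a filter, -0.91 with upper quartile scaling, -0.93 with Ddx3y as a covariate for sex and -0.92 with the replicate block, against -0.92 in the main analysis, so in those its place beside the threshold moved and its size did not. With the replicate block 2700 genes were called in all. Lct was -0.70 after the epithelial subtraction and -0.85 without HIF2 replicates 6 to 8. Enpep was -0.96 without WT replicate 2. The causes were not tested. Same-numbered libraries were not treated as pairs in the main analysis. Correlations of their deviations ran from -0.0333 to 0.112, 1 of 9 over 0.1, and no library correlated best with its own number. These values cannot exclude a pairing, since libraries within a group differed widely in other ways, such as smooth muscle RNA. Depth is unknown, so the precision of low genes such as Lct and Treh rests on the spread between libraries alone.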

Other observations

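Hoxb13, a gene known from the distal colon and chosen here after its values were seen, was 12.1 FPKM in HIF2 replicate 0, whereas the remaining HIF2 libraries ran from 79.1 to 211. In WT it was between 54.9 and 204 FPKM, lowest in replicate 3. Those 2 libraries were the ones that stood above the rest of their group for Lct. Clps, a pancreatic lipase cofactor gene, was between 19.2 and 90.3 FPKM in WT and between 0 and 31.8 in HIF2.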
